A study of Mus musculus with 21 samples.

Results

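The ubiquitin-specific proteases (Usp genes) were followed through the change from oocyte transcripts to transcripts of the embryo in mouse. They were taken as every gene whose symbol in the array annotation is Usp followed by digits, with or without a final x, which gave 40 of the 15967 genes with a symbol of their own. Of these, 33 passed the detection filter and were tested, among 8527 genes in all. Expression had been measured on Illumina bead arrays, each embryo array from RNA of 20 pooled embryos cultured in KSOM medium. The 21 arrays lay on 6 chips and fell into 8 groups.

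The groups were as follows. Interphase zygotes were taken 24 to 28 h after the hCG injection that triggers ovulation (3 arrays), mitotic zygotes were held in mitosis with the spindle poison nocodazole at 32 to 34 h (3 arrays), and 2-cell embryos were taken at 48 to 50 h (2 arrays). At that same age there were 4 arrays of M phase transfer embryos and 2 of interphase transfer embryos, in which a new genome had been placed into an enucleated zygote in M phase or in interphase. Drug controls (3 arrays) were embryos that had met nocodazole at mitosis, and genomeless embryos (2 arrays) had been enucleated without a new genome being put in. Cultured embryonic stem (ES) cells made up 2 arrays. The labels name neither strains nor the donor cell of the transfers, so recipient stage cannot be told apart from other differences between the transfer experiments.

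Ubiquitin is a small protein that is joined to other proteins and can mark them for breakdown by the proteasome or change where they go and what they bind. Ubiquitin-specific proteases are the largest family of enzymes that take ubiquitin off again, through a catalytic cysteine, and they act on histones, receptors, cell cycle proteins and ubiquitin chains. The early mouse embryo lives on transcripts stored in the oocyte, many of which are degraded around the first division while the embryonic genome is switched on at the 2-cell stage.

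Arrays differed in brightness. Mean signal lay between 73.0 and 687.57 on 19 arrays, but was 11.25 on genomeless array B and 12.79 on interphase transfer array B, which also detected the fewest probes (2426 and 3412, against 4816 to 8317). The A and C arrays of mitotic zygotes, and the B and C arrays of drug controls, differed by less than any other pair within a group (SD of log2 differences 0.117 and 0.12, against 0.28 to 1.477 in the other 17 pairs) and may be repeat hybridisations. Both pairs were therefore averaged to 1 sample each, called sample A of the mitotic zygotes and sample B of the drug controls, which left 19 samples. Nothing in the labels says that samples came from separate collections of embryos, so p-values measure the spread between these samples, which may be technical. All 5 oocyte markers (Zp3, Gdf9, Bmp15, Nlrp5 and Oosp1) were detected on every embryo array, and 4 of them on no ES array, where the 5 ES markers on the array were all detected. ES array A has a source label that names blood, yet it carried these ES markers too. Of the 5 blood markers on the array, Hba-a1, Alas2, Ptprc and Cd74 were detected on neither ES array and Cd3e on both, and the summed blood marker signal was 118.7 and 76.5 on the ES arrays, against at most 65.3 on any embryo array. Levels below are log2 values after background correction and quantile normalisation, a difference ± its standard error (SE) is in log2 units, and a gene was called at an adjusted p below 0.05 in limma. In such arrays fewer copies per embryo and a different total of RNA per embryo cannot be told apart.

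Promoters of the 4 members called lower in 2-cell embryos and of Usp37 are given first, as RefSeq windows on GRCm38.p6 (250 bases before to 50 after the transcript start). Usp3, Usp30, Usp46 and Usp11 were the members called lower in 2-cell embryos than in mitotic zygotes, and Usp37 had the largest called gain in drug controls against interphase zygotes. Capitals mark GC boxes (GGGCGG on either strand) and CCAAT boxes (CCAAT on either strand).
Usp3, chr9:66593066-66593365, minus strand: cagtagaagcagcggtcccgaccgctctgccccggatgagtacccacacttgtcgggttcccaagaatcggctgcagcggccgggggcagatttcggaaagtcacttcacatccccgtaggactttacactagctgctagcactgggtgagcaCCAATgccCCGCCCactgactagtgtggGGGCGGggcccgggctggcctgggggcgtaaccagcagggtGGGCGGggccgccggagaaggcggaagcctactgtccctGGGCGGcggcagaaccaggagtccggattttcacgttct
Usp30, chr5:114100083-114100382, plus strand: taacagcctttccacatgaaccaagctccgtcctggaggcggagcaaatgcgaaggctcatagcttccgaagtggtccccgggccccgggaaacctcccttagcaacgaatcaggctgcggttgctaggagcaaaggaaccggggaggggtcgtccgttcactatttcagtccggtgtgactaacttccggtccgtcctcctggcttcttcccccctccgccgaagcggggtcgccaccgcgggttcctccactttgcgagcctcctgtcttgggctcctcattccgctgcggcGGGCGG
Usp46, chr5:74068362-74068661, minus strand: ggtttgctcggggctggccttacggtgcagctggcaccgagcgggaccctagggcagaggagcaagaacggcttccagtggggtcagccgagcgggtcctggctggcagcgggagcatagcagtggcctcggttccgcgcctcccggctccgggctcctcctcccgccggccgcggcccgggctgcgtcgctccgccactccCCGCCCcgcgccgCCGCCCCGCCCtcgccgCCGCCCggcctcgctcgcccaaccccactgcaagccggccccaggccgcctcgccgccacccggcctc
Usp11, chrX:20703659-20703958, plus strand: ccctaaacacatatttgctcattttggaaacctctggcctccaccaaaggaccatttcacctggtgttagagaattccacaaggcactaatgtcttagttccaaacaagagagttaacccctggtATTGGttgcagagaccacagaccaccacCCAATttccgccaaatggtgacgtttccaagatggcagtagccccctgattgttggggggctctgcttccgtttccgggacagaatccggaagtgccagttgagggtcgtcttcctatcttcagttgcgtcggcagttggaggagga
Usp37, chr1:74505772-74506071, minus strand: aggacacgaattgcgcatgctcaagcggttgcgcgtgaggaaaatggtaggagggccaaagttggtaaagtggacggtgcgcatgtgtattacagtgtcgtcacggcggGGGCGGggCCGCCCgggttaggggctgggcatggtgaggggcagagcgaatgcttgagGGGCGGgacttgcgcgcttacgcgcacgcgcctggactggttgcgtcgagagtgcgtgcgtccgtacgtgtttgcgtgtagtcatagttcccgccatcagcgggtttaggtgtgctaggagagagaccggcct
The windows were not alike: the Usp3 window holds 4 GC boxes and 1 CCAAT box, that of Usp46 4 GC boxes, that of Usp30 1 GC box at its last bases, and that of Usp37 3 GC boxes. The Usp11 window holds 2 CCAAT boxes and no GC box. Windows were found for 25 of the 33 tested members, and 17 of them (68%) hold a GC box, against 35.7% of the 32851 windows of all genes. A CCAAT box was present in 28% of the Usp windows and 37.4% of all, and a TATAAA box in 4% and 13.6%. CACGTG was present in 12% of the Usp windows and 7.15% of all, and TAATCC, the core of sites bound by Otx-class factors, in 8% and 7.06%. The median GC content was 65% in the Usp windows and 52.7% in all windows. The windows of all genes were limited neither to genes tested here nor to a single window per gene, while the Usp windows are of tested members. These matches are letters in a window and were not tested as sites.

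A larger share of Usp genes than of all genes was detected in each group, and the share of Usp genes was lowest in genomeless and interphase transfer embryos. Detection means a deposited detection p below 0.01 for at least 1 probe of the gene. Several probes stood for 14 of the 40 members, and the shares were not adjusted for the number of probes per gene. Of the 40 members, 22 (55%) were detected on every array of interphase zygotes, 25 (62.5%) of mitotic zygotes and 21 (52.5%) of 2-cell embryos, against 29.3%, 35.3% and 31.3% of all genes. The share was 30% in M phase transfer embryos, 42.5% in drug controls, 27.5% in interphase transfer embryos and 25% in genomeless embryos, against 23.2%, 28.9%, 13.3% and 9.68% of all genes. In ES cells it was 40%, against 31.5% of all genes. The low share in interphase transfer and genomeless embryos includes the 2 dim arrays, on which 11 and 10 members were detected, against 22 and 20 on the brighter arrays of these groups.

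**Figure D1:**
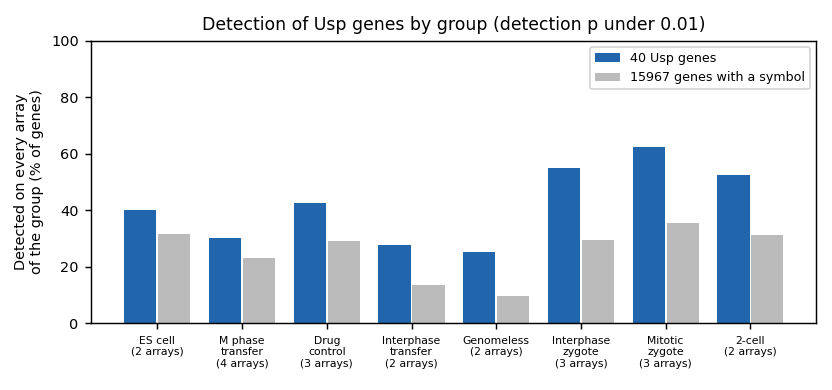
Share of genes detected on every array of a group (%), for the 40 Usp genes and for all genes with a symbol, with the number of arrays under each group. The Usp bar is higher than the bar for all genes in all 8 groups, and is tallest in mitotic zygotes (62.5%).

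A set of 4 members was detected on all 21 arrays: Usp1, the protease that with Wdr48 acts in DNA damage tolerance; Usp7, which stabilises Mdm2 and p53; Usp21, which acts on histones; and Usp39, a splicing factor. Another 6 were detected on no array (Usp25, Usp26, Usp27x, Usp33, Usp44 and Usp47), and Usp13 on 1 array of interphase zygotes, so these 7 were not tested. In human cells Usp44 is known as a guard of the mitotic spindle checkpoint, and Usp33 and Usp20 are a related pair of which Usp20 was tested here. Of the 33 tested members, 19 were called in at least 1 of 8 comparisons (44 called differences) and 14 in none. Single comparisons called from 0% to 31.9% of all tested genes. The share of all genes called in at least 1 comparison was not counted, so the 19 do not set Usp genes apart from other genes.

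In 2-cell embryos against mitotic zygotes (n = 2 each), the comparison that marks maternal transcripts as those that fall and embryonic ones as those that rise, 4 Usp transcripts fell and none was called higher. The 4 were 12.1% of the tested members, while 27.7% of all tested genes were called, 13.8% lower and 13.9% higher. The median difference was -0.11 over the Usp genes and -0.02 over all genes. This comparison chose the maternal members, so its values are a description of them.

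Usp3, which removes ubiquitin from histones, was at 7.81 and 6.98 in 2-cell embryos, against 11.16 and 11.15 in mitotic zygotes. It was high in every zygote sample and lower by several log2 units in both 2-cell samples. The difference was -3.76 ± 0.65 (adjusted p = 0.000716, limma), a 13.5-fold lower level. Usp30, an enzyme of the outer mitochondrial membrane that opposes the Parkin pathway of mitochondrial clearance, was at 6.69 and 6.36 in 2-cell embryos, against 9.38 and 9.28 in mitotic zygotes (-2.80 ± 0.34, adjusted p = 4.8e-05). The groups did not overlap for either gene, and both calls held when any 1 of the 4 samples was left out. With scaling to the probes detected on all arrays, an alternative chosen after seeing the data, Usp3 stayed called (-2.93, adjusted p = 0.0406) and Usp30 did not (-1.87, adjusted p = 0.344).

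Usp46 and Usp11 fell to levels not well above background. Usp46, which needs the partner Wdr48 for full activity, was at 5.95 and 6.51 in 2-cell embryos, against 7.46 and 7.95 in mitotic zygotes (-1.48 ± 0.49, adjusted p = 0.036). It was detected on no 2-cell array and was at least 2.18-fold lower there, a bound set by the dimmest signals counted as detected on those arrays. Usp11, an X-linked enzyme with roles in DNA repair, was at 6.23 and 6.13 in 2-cell embryos, against 7.35 and 7.15 in mitotic zygotes (-1.07 ± 0.32, adjusted p = 0.0236), at least 1.59-fold lower. Neither call held when any 1 of the 4 samples was left out (adjusted p from 0.0676 to 0.209 for Usp46 and from 0.0762 to 0.139 for Usp11). With chip as a block, in a fit that used 1 array of each likely repeat pair, the Usp11 difference was -0.97 (adjusted p = 0.146). Within chip 4, with 2 arrays a group, it was -1.16, which was not tested. The Usp46 call was also lost with replicate letters as a block (adjusted p = 0.0609). With the added scaling neither gene was called (-0.57 for Usp46, adjusted p = 0.76, and -0.14 for Usp11, adjusted p = 0.95).

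Just outside the threshold lay Usp2, which acts on cyclin D1 and on clock proteins, with -3.07 ± 1.11 (adjusted p = 0.053), and Usp36, a nucleolar enzyme, with 1.73 ± 0.73 (adjusted p = 0.0918). Usp2 was at 6.78 and 7.02 in 2-cell embryos, against 9.93 and 10.01 in mitotic zygotes, a gap as wide as that of Usp30. The other Usp2 probes, detected on 9 and 2 arrays, gave -1.41 and -0.26. Of 12 alternatives other than leaving out 1 sample, 7 called Usp2 and 3 called Usp36. The standard error of Usp2 comes from a spread shared by all groups. In that spread genomeless sample B (6.03, against 9.79 in sample A) and interphase transfer sample B (5.86, against 9.97) differ most. Without these 2 dim arrays, Usp2 (adjusted p = 4.3e-05) and Usp36 (adjusted p = 0.0438) were called too, and the count was 8 members (24.2%), 2 higher and 6 lower, while 39.1% of all genes were called, 17.8% higher and 21.3% lower.

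**Figure D2:**
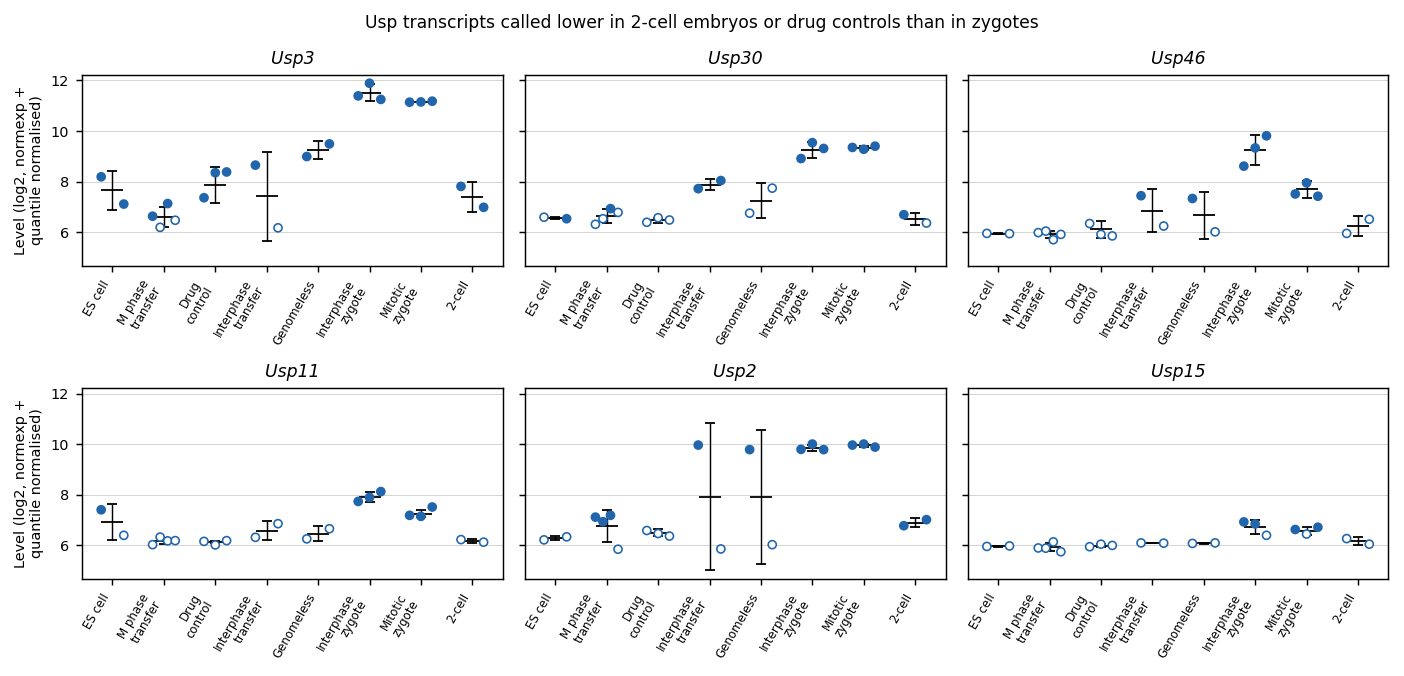
Levels (log2, normalised) of 6 Usp transcripts called lower in 2-cell embryos or drug controls than in zygotes, by group. Each point is 1 array, filled where the transcript was detected, and bars give the mean ± SD over samples. Usp3 and Usp30 stand high in all interphase and mitotic zygotes and lower in 2-cell embryos, drug controls and M phase transfer embryos, and Usp2 splits between a bright and a dim array in interphase transfer and genomeless embryos.

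Drug controls against interphase zygotes (n = 2 against 3) repeat the same step of development in samples that the first comparison did not use. Here 10 of 33 members (30.3%) were called, 8 lower and 2 higher, against 31.9% of all genes, 15.7% lower and 16.1% higher. The median difference was -0.09 over the Usp genes and 0 over all genes. All 4 maternal members were called lower here too, as were 77.6% of the 1177 genes that were called lower in 2-cell embryos. No chip held both groups, so chip and group cannot be told apart here. A fit with chip as a random block cannot separate them either.

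Usp3 was at 7.36 and 8.37 in drug controls, against 11.39, 11.89 and 11.25 in interphase zygotes (-3.64 ± 0.59, adjusted p = 0.000351). Usp30 was at 6.39 and 6.52 in drug controls, against 8.91, 9.54 and 9.31 in interphase zygotes, at least 5.87-fold lower (adjusted p = 1.5e-05). Usp46 was at 6.34 and 5.88 in drug controls, against 8.61, 9.33 and 9.81 in interphase zygotes, at least 5.85-fold lower (adjusted p = 0.000122). For these 3 genes each drug control lay far under each zygote sample. Usp11 was at 6.16 and 6.11 in drug controls, against 7.74, 7.90 and 8.13 in interphase zygotes, at least 2.34-fold lower (adjusted p = 0.000402). All 4 calls held when any 1 sample of these groups was left out. With the added scaling Usp3 stayed called (-3.03, adjusted p = 0.0158), and Usp30 (adjusted p = 0.19), Usp46 (0.147) and Usp11 (0.705) did not.

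A further 4 members fell in drug controls, with calls that held less well. Usp2 was at 6.59 and 6.42, detected on none of these arrays, against 9.80, 10.01 and 9.79 in interphase zygotes, at least 9-fold lower (adjusted p = 0.0204). The other Usp2 probes, detected on 9 and 2 arrays, gave smaller differences of -2.05 and -0.5. Usp5, which takes apart free ubiquitin chains, was at 6.54 and 6.39 in drug controls, against 7.69, 8.03 and 7.08 in interphase zygotes, at least 1.87-fold lower (adjusted p = 0.0158). Usp4 and Usp15, relatives of Usp11 that act in splicing and in TGF-beta signalling, were lower too. Usp4 gave -0.92 ± 0.28 (adjusted p = 0.0196), and Usp15, detected on no drug control array, was at least 1.02-fold lower (adjusted p = 0.0247). None of these 4 calls held through every omission of 1 sample: the adjusted p reached 0.11 for Usp2, 0.107 for Usp5, 0.164 for Usp4 and 0.126 for Usp15. Median scaling ended the calls of Usp5 (adjusted p = 0.0738) and Usp15 (adjusted p = 0.0614), and the added scaling put Usp15 at 0.01 and Usp4 at -0.48 (adjusted p = 0.822).

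The 2 members called higher were Usp37 and Usp7. Usp37, which in human cells stabilises cyclin A at the entry into S phase, was at 9.61 and 9.62 in drug controls, against 7.63, 7.50 and 7.23 in interphase zygotes (2.17 ± 0.39, adjusted p = 0.000738). It was detected on every array of both groups, and the 2 drug controls lay above all 3 zygote samples. Usp7 was at 10.19 and 9.04 in drug controls, against 8.13, 7.79 and 7.74 in interphase zygotes (1.73 ± 0.60, adjusted p = 0.0391). Its call was lost on leaving out any of 4 of the 5 samples (adjusted p 0.0564 to 0.321) and with replicate letters as a block (adjusted p = 0.058), and median scaling ended both calls (adjusted p = 0.0614 for Usp37 and 0.574 for Usp7), as did the added scaling (0.0973 and 0.101). In 2-cell embryos against mitotic zygotes Usp37 gave 1.01 ± 0.42 (adjusted p = 0.0918), with 8.42 and 8.68 against 7.70 and 7.38, and was not called.

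**Figure D3:**
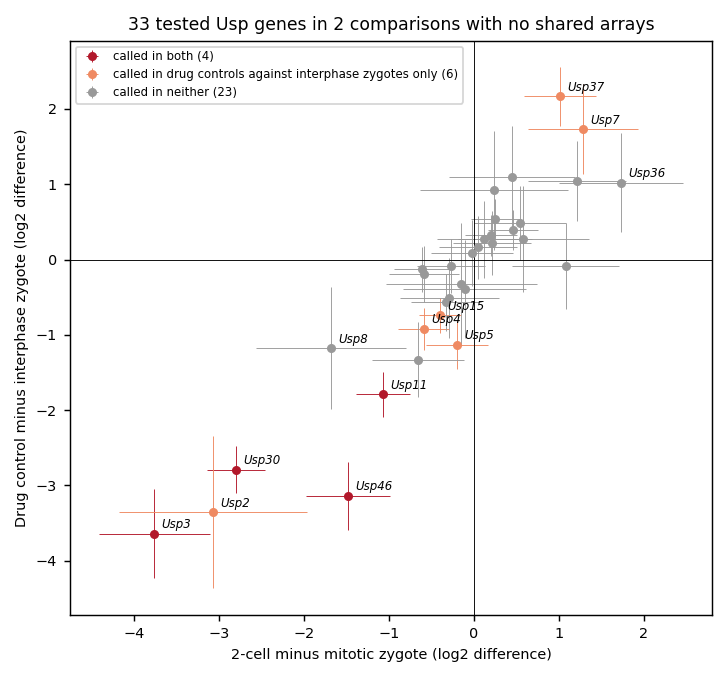
Log2 difference of each of the 33 tested Usp genes in 2-cell embryos minus mitotic zygotes (horizontal axis) and in drug controls minus interphase zygotes (vertical axis), with bars of 1 SE. Usp3, Usp30, Usp46 and Usp11, called in both, lie at the lower left, and Usp37 and Usp7, called in drug controls, at the upper right.

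Between the zygote stages no member was called. In mitotic against interphase zygotes (n = 2 against 3) limma called 0 of 33 members and 0% of all genes. There were 4 members at an unadjusted p below 0.05, and 4 were called when arrays were weighted by quality. Shares of all genes are not given for these counts, so they do not set Usp genes apart. The largest shift at an unadjusted p below 0.05 was in Usp46, at 7.46 and 7.95 in mitotic zygotes, against 8.61, 9.33 and 9.81 in interphase zygotes (-1.54 ± 0.45, adjusted p = 0.568). The 2 groups of samples did not overlap for this gene, although the difference failed the correction. No chip held both zygote groups.

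In genomeless embryos, aged as long as 2-cell embryos but with no genome, the maternal members were lower than in interphase zygotes and a separate set was higher. Against interphase zygotes (n = 2 against 3), 11 of 33 members (33.3%) were called, 7 lower and 4 higher, while 24.7% of all genes were called, 15.9% lower and 8.71% higher. The median difference was -0.61 over the Usp genes and -0.06 over all genes. This comparison and the preceding one of drug controls share the interphase zygotes. Again no chip held both groups, so chip and group cannot be told apart, and a random block for chip cannot separate them.

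All 4 maternal members were called lower, as were 47.2% of the genes of that class. Usp3 was at 8.99 and 9.49 in genomeless embryos, against 11.39, 11.89 and 11.25 in interphase zygotes (-2.27 ± 0.59, adjusted p = 0.0123), and its call was lost without genomeless sample A (adjusted p = 0.0546). Usp30 was at 6.75 and 7.74 in genomeless embryos, detected on neither array, and at least 2.36-fold lower than in interphase zygotes (adjusted p = 0.000496). Usp46 was at 7.33 and 6.01 in genomeless embryos (-2.57 ± 0.45, adjusted p = 0.00104), and Usp11 at 6.26 and 6.66 (adjusted p = 0.00283). Usp11 was detected on neither genomeless array, and no fold is given because its bound lay under 1. With the added scaling none of the 4 was called (adjusted p 0.112 to 0.802). Drug controls minus genomeless embryos was called for none of the 4, and gave -1.37 ± 0.65 for Usp3 (adjusted p = 0.129).

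Usp10 and Usp39 were lower in genomeless embryos than in interphase zygotes and drug controls. Usp10, which acts on p53 and binds stress granule proteins, was at 6.85 and 6.95 in genomeless embryos, detected on neither array, against 10.48, 9.51 and 9.45 in interphase zygotes. It was at least 3.49-fold lower than in interphase zygotes (adjusted p = 0.0024). The other Usp10 probe, detected on 9 arrays and on neither genomeless array, gave a smaller difference of -0.94. Usp39, a part of the splicing machinery without protease activity in human cells, was at 9.17 and 9.15 in genomeless embryos, against 10.85, 11.41 and 10.46 in interphase zygotes (-1.74 ± 0.36, adjusted p = 0.00325). Its other 2 probes also gave lower levels in genomeless embryos, by -2.19 and -1.46. Under median scaling the Usp39 difference was -2.97 (adjusted p = 0.055). Both calls were also lost with array weights and with the added scaling (adjusted p up to 0.376 for Usp10 and 0.175 for Usp39). Usp4 was the remaining member called lower (adjusted p = 0.0245), again detected on neither array and with no fold given, a call lost on leaving out any of 3 of the 5 samples (adjusted p 0.062 to 0.0776).

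A group of 4 members was called higher in genomeless embryos, and median scaling ended all 4 calls. With the added scaling only Usp21 stayed called, while 1.52% of all genes were called. Usp21 was at 10.98 and 10.70 in genomeless embryos, against 7.64, 8.07 and 8.47 in interphase zygotes (2.78 ± 0.30, adjusted p = 4e-05). Usp9x, a large X-linked enzyme with many substrates, was at 8.54 and 10.46 in genomeless embryos, against 6.74, 6.5 and 6.58 in interphase zygotes (2.90 ± 0.44, adjusted p = 0.000418). The other Usp9x probe that passed the filter, detected on only 2 arrays, gave 0.81. Both genes were higher in each genomeless sample than in each zygote sample.
Usp24, a large relative of Usp9x, was at 7.47 and 9.22 in genomeless embryos, against 6.82, 6.53 and 6.46 in interphase zygotes (1.74 ± 0.42, adjusted p = 0.00753). Usp53, a protein of tight junctions needed for hearing in mice, was at 9.45 and 9.99 in genomeless embryos, against 8.11, 8.56 and 8.12 in interphase zygotes (1.46 ± 0.37, adjusted p = 0.0109). Usp9x and Usp24 were highest in sample B, the dim array. Without both dim arrays the differences were 2.92 for Usp21 (adjusted p = 0.000259), 1.94 for Usp9x (0.00126), 0.86 for Usp24 (0.042) and 1.19 for Usp53 (0.0592), but genomeless embryos then have a single sample whose spread is taken from the other groups. Without genomeless sample B alone, Usp24 (adjusted p = 0.117) and Usp53 (adjusted p = 0.0912) were not called. Under median scaling they were 1.17 for Usp21 (adjusted p = 0.611), 0.96 for Usp9x (0.126), 0.16 for Usp24 (0.909) and -0.26 for Usp53 (0.941), and the split of calls was 0 higher and 6 lower.

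**Figure D4:**
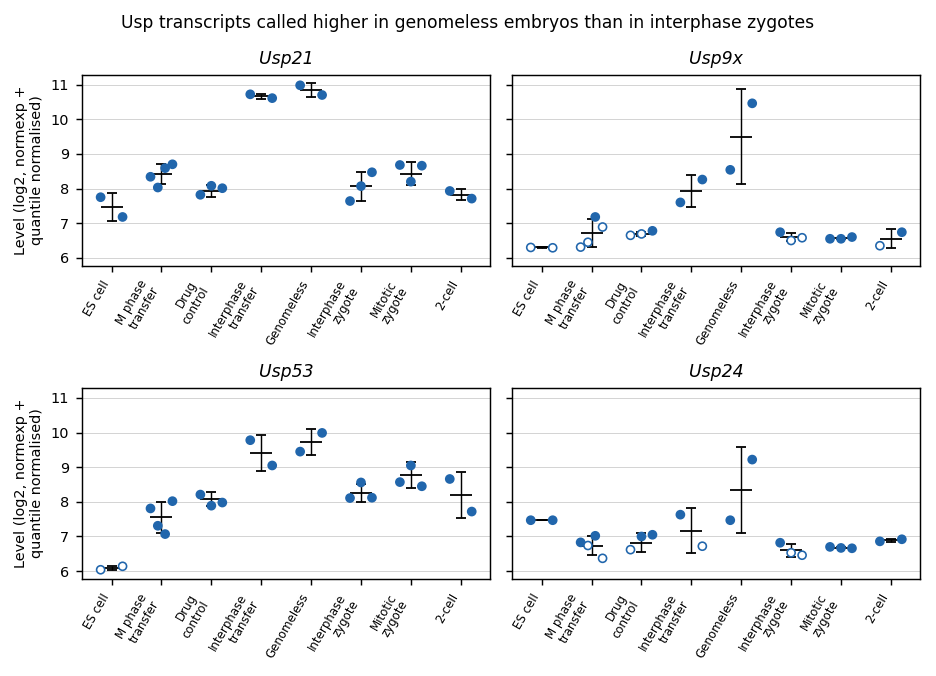
Levels (log2, normalised) of the 4 Usp transcripts called higher in genomeless embryos than in interphase zygotes, by group. Each point is 1 array, filled where the transcript was detected, and bars give the mean ± SD over samples. Usp21 stands at 10.61 or above in interphase transfer and genomeless embryos and at 8.70 or below on every array of the other groups.

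Drug controls against genomeless embryos (n = 2 each) set embryos of 1 age with and without a genome side by side. The genomeless embryos had also been through enucleation, and their sample B is a dim array. Presence of a genome cannot be told apart from these differences. Of 33 members 8 (24.2%) were called, 4 higher and 4 lower, against 30.7% of all genes, 19.3% higher and 11.4% lower. The median difference was -0.10 over the Usp genes and 0.03 over all genes. The drug controls are the same as in the comparison with zygotes.

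The members called higher in drug controls were Usp10, Usp36, Usp39 and Usp37. Usp10 was at 9.59 and 9.85 in drug controls, against 6.85 and 6.95 in genomeless embryos, at least 3.27-fold higher (adjusted p = 0.0037). These values are of the chosen probe, which gave 2.86, while the other Usp10 probe gave 0.4, so the size of this change is uncertain. Usp39 was at 10.95 and 10.68 in drug controls, against 9.17 and 9.15 in genomeless embryos (1.65 ± 0.40, adjusted p = 0.00572). Drug controls minus interphase zygotes was -0.09 ± 0.57 for Usp10 (adjusted p = 0.946), so that the genomeless samples were the low ones of the 3 groups. Usp36 was at 8.81 and 8.64 in drug controls, against 6.66 and 6.51 in genomeless embryos, at least 1.64-fold higher (adjusted p = 0.0376). Usp37 was at 9.61 and 9.62 in drug controls, against 7.66 and 9.12 in genomeless embryos (1.22 ± 0.42, adjusted p = 0.0414).
The calls of Usp36 and Usp37 were lost with chip as a block (adjusted p = 0.142 and 0.187). Usp36 was lost whichever sample was left out (adjusted p 0.0722 to 0.143) and Usp37 on leaving out any of 3 of the 4 (0.134 to 0.382). On the chip that both groups share, 1 array a group, the differences were 2.93 for Usp10, 2.11 for Usp36, 1.54 for Usp39 and 0.52 for Usp37. Median scaling kept the calls of Usp10 (2.78) and Usp37 (2.27), and not those of Usp36 (adjusted p = 0.337) and Usp39 (0.151). Neither array weights nor the added scaling kept the call of any of these genes (adjusted p up to 0.307 for Usp10).

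The members called lower in drug controls were those called higher in genomeless embryos than in zygotes, and both comparisons share the genomeless samples. Usp21 was at 7.82 and 8.04 in drug controls, against 10.98 and 10.70 in genomeless embryos (-2.91 ± 0.33, adjusted p = 2.42e-05). Usp9x was at 6.65 and 6.74 in drug controls, against 8.54 and 10.46 in genomeless embryos (-2.81 ± 0.48, adjusted p = 0.000576). The other Usp9x probe that passed the filter gave -0.87. The differences were -1.65 ± 0.41 for Usp53 (adjusted p = 0.00702) and -1.52 ± 0.46 for Usp24 (adjusted p = 0.02). Without genomeless sample B they were -1.38 (adjusted p = 0.0511) and -0.64 (0.24), and with chip as a block -1.71 (0.0543) and -1.38 (0.15). Usp24 was also lost without either drug control (adjusted p = 0.127 and 0.0517), and Usp53 without drug control B (0.0583). Under median scaling none of the 4 was called, with adjusted p from 0.143 to 0.939.

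Transfer into M phase recipients was set against transfer into interphase recipients (n = 4 against 2), the comparison of recipient stage to which the study's title points. Of 33 members 8 (24.2%) were called, 4 higher and 4 lower, against 29.1% of all genes, 17.8% higher and 11.4% lower. The median difference was -0.43 over the Usp genes and 0.01 over all genes. Each of chips 5 and 6 held 2 M phase arrays and 1 interphase array, so values within each chip could be had.

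Usp37 was called higher and was at 9.62, 9.29, 9.56 and 9.16 in M phase transfer embryos, against 6.78 and 5.92 in interphase transfer embryos, where neither array detected it. The level was at least 3.81-fold higher in M phase transfer embryos (3.06 ± 0.37, adjusted p = 3.2e-05), and the differences within chips were 2.67 and 3.44. This call held under median scaling (3.11, adjusted p = 0.00117) and without the 2 dim arrays (2.63, adjusted p = 6.7e-05), and was lost with the added scaling (2.36, adjusted p = 0.0889). The drug controls stood at 9.61 and 9.62.
Usp20, an enzyme of the endoplasmic reticulum and cytosol related to Usp33, was at 9.67, 9.43, 7.67 and 8.48 in M phase transfer embryos, against 6.51 and 6.22 in interphase transfer embryos, at least 2.52-fold higher (adjusted p = 0.0084). It was lost without interphase sample B (adjusted p = 0.0547). Usp39 was at 11.15, 10.95, 10.59 and 9.99 in M phase transfer embryos, against 9.10 and 9.34 in interphase transfer embryos (1.45 ± 0.34, adjusted p = 0.00548). Under median scaling its adjusted p was 0.0531. For both genes each M phase sample stood above both interphase samples.
Usp10 was at 7.75, 7.48, 9.47 and 9.55 in M phase transfer embryos, against 7.25 and 6.59 in interphase transfer embryos (1.64 ± 0.54, adjusted p = 0.035). Its level in M phase transfer embryos differed by chip, with samples A and B on chip 5 and C and D on chip 6, and the difference was 0.37 within chip 5 and 2.92 within chip 6. Its call was lost without interphase sample B (adjusted p = 0.199), without M phase sample C or D (0.0836 and 0.0779) and with replicate letters as a block (0.146). The Usp10 call was also lost with the mean of probes, no detection filter, array weights and the added scaling. The other Usp10 probe gave 0.25, against 1.64 for the chosen probe.

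Usp7, Usp36 and Usp20 also differed between the chips within M phase transfer embryos. Usp7 was at 10.97 and 11.07 on chip 5 and at 9.29 and 9.15 on chip 6, and Usp36 at 9.96 and 9.31 on chip 5 and at 7.88 and 7.51 on chip 6. For Usp36 the M phase minus interphase difference was 1.63 within chip 5 and -2.50 within chip 6, opposite in sign, and it was not called (-0.43, adjusted p = 0.642). Chip 5 arrays of M phase transfer were brighter (mean signal 687.57 and 594.84) than those on chip 6 (159.94 and 73.0), and the part of chip or brightness in these values was not tested.

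**Figure D5:**
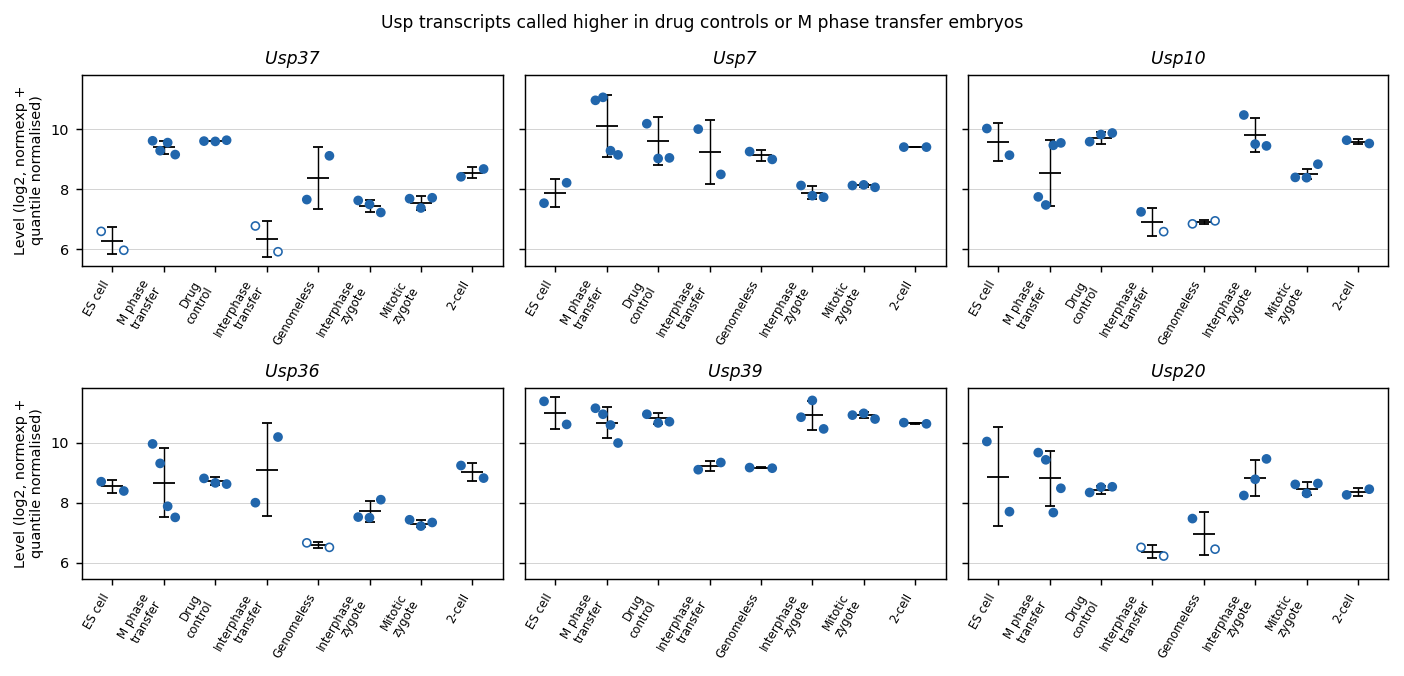
Levels (log2, normalised) of 6 Usp transcripts called higher in drug controls or M phase transfer embryos, by group. Each point is 1 array, filled where the transcript was detected, and bars give the mean ± SD over samples. Usp37 lies above 9 in all M phase transfer embryos and drug controls and is undetected in interphase transfer embryos and ES cells, and Usp10 and Usp36 are undetected in genomeless embryos.

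The members called lower in M phase than in interphase transfer embryos were Usp21, Usp53, Usp30 and Usp9x. Usp21 was at 8.34, 8.03, 8.59 and 8.70 in M phase transfer embryos, against 10.72 and 10.61 in interphase transfer embryos (-2.25 ± 0.29, adjusted p = 5.6e-05). Usp53 was at 7.81, 7.31, 7.07 and 8.02, against 9.78 and 9.05 (-1.86 ± 0.35, adjusted p = 0.00128). Neither gene overlapped between the groups, and within chips 5 and 6 the differences were -2.53 and -1.96 for Usp21 and -2.22 and -1.50 for Usp53.
Usp30, the maternal member among these, was at 6.31, 6.53, 6.93 and 6.78 in M phase transfer embryos, against 7.72 and 8.04 in interphase transfer embryos (-1.24 ± 0.29, adjusted p = 0.00567). It was detected on both interphase transfer arrays. Usp9x gave -1.22 ± 0.42 (adjusted p = 0.0396), and its call was lost without interphase sample B (adjusted p = 0.248) or M phase sample A (0.0879) or B (0.0842). The other Usp9x probe that passed the filter gave -0.21. Without interphase sample B the adjusted p of Usp30 was 0.0522. Under median scaling none of these 4 was called (adjusted p 0.405 to 0.666), and 3 members were called higher and 0 lower.
The other 3 maternal members were not called in this comparison. Usp3 was at 6.63, 6.19, 7.13 and 6.47 in M phase transfer embryos, against 8.65 and 6.17 in interphase transfer embryos, where the dim array decides the mean. Usp46 was at 5.98, 6.04, 5.70 and 5.91, against 7.44 and 6.24. Without the 2 dim arrays 15 members (45.5%) were called, 3 higher and 12 lower, while 33.9% of all genes were called, 15.7% higher and 18.2% lower, but interphase transfer then has a single sample whose spread is taken from the other groups.

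M phase transfer embryos against drug controls (n = 4 against 2) gave no called member. By limma 0 of 33 Usp genes and 0.258% of all genes were called. There were 2 members at an unadjusted p below 0.05, and 4 were called when arrays were weighted by quality. Shares of all genes are not given for these latter counts, so they do not set Usp genes apart. A call missed does not show that the levels were alike, and the median SE over all genes was 0.45. The 4 members of the maternal class were at 7.13 or below in each M phase transfer sample.

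ES cells were compared with 2-cell embryos (n = 2 each) as a later pluripotent cell. No chip held both groups, so cell type and chip cannot be told apart. Of 33 members 3 (9.09%) were called, all lower in ES cells, against 15.4% of all genes, 6.98% lower and 8.4% higher. Usp37 was at 6.60 and 5.97 in ES cells, against 8.42 and 8.68 in 2-cell embryos, at least 3.99-fold lower (adjusted p = 0.00245). Usp53 was at 6.04 and 6.14 in ES cells, against 8.66 and 7.72 in 2-cell embryos, at least 3.11-fold lower (adjusted p = 0.00298). No ES array detected either gene. Usp16, a histone enzyme of the mitotic cell, was at 6.12 and 7.79 in ES cells, against 9.74 and 9.52 in 2-cell embryos (-2.67 ± 0.74, adjusted p = 0.0243). Usp16 lost its call without either 2-cell sample or ES sample A (adjusted p 0.0975 to 0.239), Usp53 without 2-cell sample A (0.0507), and none of the 3 was called under median scaling (0.128 to 0.459). Usp16 was also not called with chip as a random block or with no detection filter. With the added scaling none of the 3 was called. Of the 5 fibroblast markers, which feeder cells would also carry, Vim was detected on 2 of 2 ES arrays, Thy1 on 1, and Col1a1, Col1a2 and Col3a1 on none. Their summed signal was 1599.9 and 3363 on the ES arrays, against at most 37 in 2-cell embryos and 698.4 on any embryo array. The part of these fibroblast and blood markers in the result was not tested.

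The 14 members called in no comparison include regulators at several sites in the cell. Usp8, which acts on receptors at endosomes, was at 7.41 and 6.74 in 2-cell embryos, against 8.66 and 8.85 in mitotic zygotes, a difference of -1.68 that was not called. Usp14, an enzyme bound to the proteasome, was detected on 16 arrays, and on none from interphase transfer or genomeless embryos. Usp1 had 2 probes detected on all arrays that differed: in M phase minus interphase transfer embryos the chosen probe gave -0.45 and the other -2.47, so its change is uncertain. Usp29 was detected on 2 of 2 arrays of 2-cell embryos and 2 of 3 of drug controls and on none of the other groups, Usp28 on 3 of 3 arrays of mitotic zygotes, 2 of 3 of interphase zygotes and none of the others. The remaining 9 were Usp12, Usp32, Usp40, Usp42, Usp43, Usp45, Usp49, Usp50 and Usp54, of which Usp54 was detected on 20 arrays and Usp40, Usp43 and Usp50 on 3 each.

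Close relatives within the family were also looked at as pairs. Both genes were tested in 9 of 16 pairs listed as paralogues, and in 2-cell embryos against mitotic zygotes in no pair were both called. With only 12.1% of the tested members called there, a pair called together would be rare in any case. Usp12, the near copy of Usp46, gave 0.05 ± 0.46 where Usp46 gave -1.48, but was detected on only 5 arrays. Usp4 gave -0.59 ± 0.30 and Usp15 -0.40, where Usp11 gave -1.07. Elsewhere some partners were called in the same direction. In drug controls against interphase zygotes, where 30.3% of tested members were called, both were called in 2 of 9 pairs. These were Usp4 with Usp15 and Usp11 with Usp4, all lower, and both pairs hold Usp4. In genomeless embryos against interphase zygotes, where 33.3% were called, it was again 2 of 9 pairs. These were Usp11 with Usp4, lower, and Usp9x with Usp24, higher (2.90 and 1.74). In drug controls against genomeless embryos, where 24.2% were called, it was 1 of 9 pairs, Usp9x and Usp24, both lower (-2.81 and -1.52). Differences between partners were not tested, and the probes differ in brightness.

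The partner proteins of these enzymes and the other families of deubiquitinases were counted for comparison. Of 11 listed partners 7 were tested and 0 were called in 2-cell embryos against mitotic zygotes, where Wdr20, a partner of Usp12 and Usp46, gave -1.77 ± 0.63 (adjusted p = 0.0504) and the median was -0.65. Wdr48, the partner of Usp1, Usp12 and Usp46, was lower in drug controls than in genomeless embryos (-2.70 ± 0.78, adjusted p = 0.017) and lower in M phase than in interphase transfer embryos (-2.46 ± 0.68, adjusted p = 0.0134). Of 25 tested deubiquitinases of other families 4 were called higher and 6 lower in 2-cell embryos, with a median of -0.25. Over all genes 27.7% were called in that comparison, 13.9% higher and 13.8% lower, with a median of -0.02.
Of these, Psmd14, the deubiquitinase of the proteasome lid, rose by 3.75 ± 0.62 (adjusted p = 0.000513), Otud6b by 2.92 ± 0.71 (0.00728) and Otulin, which cuts linear ubiquitin chains, by 2.79 ± 0.72 (0.00978). Uchl1, an abundant enzyme of oocytes and neurons, fell by 3.23 on the log2 scale (adjusted p = 0.0008). In drug controls against interphase zygotes Psmd14 gave 2.25 ± 0.56, Otud6b 3.03 ± 0.65, Otulin 2.13 ± 0.66 and Uchl1 -3.92 ± 0.52, each called. Of 9 genes for ubiquitin itself and its activating enzymes, 2 were on the array and 0 were tested.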

How the data were processed

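The deposited values were probe signals, intensities from which background had been subtracted and which had not been normalised between arrays, and a detection p-value that the authors deposited for each probe and array. GenomeStudio is named, without its version, per the submitters' processing notes. The deposited processed table held the same intensity times 1 factor per array, with a mean of 198.09. Signals were corrected with normexp (offset 50), quantile-normalised and taken to log2 with limma 3.58.1 in R 4.3.3. Of 24613 probes, 20984 carried 1 gene symbol in the platform annotation, 1 several and 3628 none. The filter kept 11541 probes whose detection p was under 0.01 on 2 or more arrays. The probe with the highest mean stood for a gene (8527 genes).

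A mean per group was fitted to 19 samples (11 residual degrees of freedom), and p-values were adjusted by Benjamini-Hochberg over all genes in each of 8 comparisons. Where every probe of a gene was undetected on all arrays of the dimmer group, the fold is a bound. For members called in 2-cell embryos against mitotic zygotes every sample's value is given, and in other comparisons up to 4 called members a direction are named first. The members and lists were chosen with earlier results of these data known. Replicate letters were not used as pairs, since residuals of same-letter samples correlated at a mean of 0.01 (-0.3 to 0.46, 57 pairs). On simulated data for 2-cell embryos against mitotic zygotes, the fit recovered 0% of 200 genes changed by 1 log2 unit and 46.5% of those changed by 2, over 8527 genes. Only those 200 genes were changed, while 27.7% of genes were called in the data. The adjusted p is harder to pass when few genes change, so these shares do not give the power in the data. There Usp11 was called at -1.07. Precision is limited by the number of arrays. Alternatives changed scaling, offset, detection filter, probe choice, array weights, chip or replicate block and the samples used.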

Additional observations from a re-analysis of the deposited data

Results flagged for a closer look

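Among the 33 tested members in M phase transfer embryos, the group with 4 samples, 1 sample stood apart from the other 3. Usp43 was at a log2 level of 6.33 in sample A, against 5.81 to 5.82 in the others, a gap of 0.971 of the whole range. Usp43 was detected on none of these 4 arrays, and chance sets apart about 1 in 20 groups.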

How the results depend on the processing

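Of 44 called Usp differences, 42 kept their direction under every alternative run, 2 (Usp3 in 2-cell embryos and in drug controls, each against zygotes) kept their call under every one, and 23 kept it whichever single sample was left out. Calls kept were 43 of 44 with an offset of 16, 43 with the mean of probes, 43 with chip as a random block, 44 with 21 separate arrays, 40 with replicate letters as a block, 40 without the 2 dim arrays, 38 on the deposited mean-scaled values, 36 with no detection filter, 27 with array weights and 21 with median scaling. Scaling to the 1006 probes detected on all arrays, an alternative chosen after seeing the data, kept 4. Where no chip held both groups, calls kept with chip as a random block do not separate chip from group. For 2-cell embryos against mitotic zygotes the count of 4 became 7 with 21 separate arrays, 16 with array weights, 8 without the dim arrays, 2 with the added scaling and 2 whichever sample was left out. For drug controls against interphase zygotes 10 became 6 with median scaling, 2 with the added scaling and 6 to 10 without 1 sample. For genomeless embryos against interphase zygotes 11 became 6 with median scaling, 5 with weights and 1 with the added scaling. For drug controls against genomeless embryos 8 became 2 with median scaling, 2 with weights, 5 with chip as a block, 0 with the added scaling and 4 to 9 without 1 sample. For M phase against interphase transfer 8 became 3 with median scaling, 3 with weights, 15 without the dim arrays and 1 with the added scaling. For ES cells against 2-cell embryos 3 became 0 with median scaling, 0 with the added scaling and 1 to 4 without 1 sample. With weights 4 were called in M phase transfer embryos against drug controls and 4 in mitotic against interphase zygotes, where none was called otherwise. The share of all genes called moved with the setting too. For 2-cell embryos against mitotic zygotes it was 27.7% in the main fit, 15.2% with median scaling, 39.1% without the dim arrays and 5.75% with the added scaling. It is not given for weights, separate arrays or blocks, so those counts do not set Usp genes apart from other genes. Usp15 in drug controls against interphase zygotes turned to 0.01 (adjusted p = 0.998) with the added scaling, and Usp53 in genomeless embryos against interphase zygotes to -0.26 (adjusted p = 0.941) with median scaling. With replicate letters as a block the counts were 3, 10, 12, 7, 8, 0, 3 and 0 in the order of 2-cell embryos, drug controls and genomeless embryos against zygotes, drug controls against genomeless embryos, M phase transfer against interphase transfer and drug controls, ES cells and mitotic zygotes. The median of all genes in genomeless embryos minus interphase zygotes was -0.39 with median scaling and 0.82 with the added scaling, against -0.06 with quantile normalisation. The cause of these changes was not tested. Signals below background limit what can be said of 7 members that were not tested.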
